A study of Mus musculus with 12 samples.

Results

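The immediate early transcription factors and their close companions were followed as 10 genes chosen by symbol: Fos, Fosb, Jun, Junb, Egr1, Atf3, Ier2, Ier3, Dusp1 and Klf4. All 10 were found among the 17734 genes of the expression table, and all 10 passed the filter on low values that left 15315 genes for testing. The rule used symbols and no expression value, but the symbols were chosen with earlier results of these data known.

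The table holds rectal RNA-seq of 12 male C57BL/6 mice aged 8 to 10 weeks, split evenly into 4 groups of 3. Normal mice drank water, and colitis mice drank 2.5% dextran sulfate sodium (DSS), a polymer that injures the colonic epithelium, for 7 days. The remaining groups, 1 on water and 1 on DSS, were in addition gavaged once a day with berberine (BBR), a plant alkaloid, at 100 mg/kg, and are called normal or colitis mice receiving BBR. The labels give 6 days of gavage and the study's methods give day 1 to day 7. Each mouse is named here by its group and the number in its label, and the numbers used are 1, 3 and 4 for mice without colitis, 1, 2 and 4 for colitis without BBR and 2, 3 and 4 for colitis with BBR. DSS colitis is a chemical injury model, and the tissue is whole rectum (colorectum in the labels), so each value is a sum over epithelium, muscle, stroma and blood-borne cells.

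Immediate early genes are transcribed soon after a cell receives a growth factor, a cytokine or a stress, without new protein synthesis. MAP kinases act on factors already bound at their promoters, such as SRF with its ELK partners and CREB, and the transcripts are short-lived. Fos and Jun proteins pair to form AP-1, which drives later waves of genes, while other members, such as Dusp1, shut the signal off. In the gut, AP-1, EGR1 and ATF3 are known as early responders to injury and microbial products, and KLF4 is known as a factor of differentiated surface epithelium.

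All values were read as FPKM, which corrects for transcript length and for depth. The sources used here do not name the unit, but TPM, the other candidate, is scaled for length too, so levels can be set side by side between genes. Averaged over the 12 mice, Klf4 had the highest level, at 275 FPKM, followed by Junb at 114, Fos at 90.8, Jun at 40.6, Ier2 at 37.5, Dusp1 at 31.5, Egr1 at 28.6, Atf3 at 26.7, Ier3 at 13.9 and Fosb at 2.11. The spread between mice differed widely. The highest mouse was 128 times the lowest for Egr1, 12.9 times for Fosb and 12.1 times for Fos, but only 2.26 times for Jun. The coefficient of variation over the 12 mice ran from 23.9% for Jun to 104% for Fos and 255% for Egr1. The mean of Egr1 therefore came mostly from 1 mouse.

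The values of the 4 mice numbered 4 summed to 482194 to 504337 FPKM and had 872 to 1086 genes at 0, whereas the other 8 mice summed to 696286 to 765876 with 1332 to 1926 genes at 0. The labels do not say what the number stands for, and each group holds 1 such mouse. The 9 markers of colonic epithelium were high in every mouse, summing to 12364 to 21774 FPKM, while 7 keratin and related genes of the anal canal's squamous epithelium summed to only 0.79 to 8.59. The 7 smooth muscle markers summed to 1634 to 3062 FPKM in normal mice and 2302 to 4883 in normal mice receiving BBR, against 71.3 to 656 with DSS alone and 476 to 3458 with DSS and BBR. The 7 granulocyte markers summed to 0.36 to 3.29 and 0.38 to 3.24 FPKM in the groups on water, without and with BBR, to 43.7 to 482 with DSS alone and to 2.79 to 209 with DSS and BBR, none of them at 0 in all 12 mice. The 7 macrophage and monocyte markers summed to 145 to 190 FPKM in normal mice, 136 to 228 in normal mice receiving BBR, 215 to 675 with DSS alone and 114 to 245 with DSS and BBR, and the 5 endothelial markers to 16.4 to 20.2 FPKM on water, with or without BBR, and 3.61 to 11.1 on DSS. In whole tissue, fewer cells of a type and less RNA per cell cannot be told apart.

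The deposited values were used without further scaling. On the log2(FPKM + 0.1) scale the median over all 15315 genes was -0.32 in colitis against normal mice, and quantile normalization brought this to -0.05. Differences of single members should be read against that shift.

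Promoters were read from a set based on RefSeq, build GRCm38.p6, as 300 bases with the annotated start after the first 250. The set used held 8 of the 10 members and lacked Egr1 and Ier2. No coordinates were used from the mm9 alignment behind the expression values. The 4 printed here belong to a pair that was highest in the same normal mouse, Fos and Junb, and to a pair higher in colitis mice receiving BBR than in normal mice receiving BBR without overlap, Atf3 and Ier3. Capitals mark the motif matches listed after them.
Fos promoter, chr12:85473640-85473939, plus strand: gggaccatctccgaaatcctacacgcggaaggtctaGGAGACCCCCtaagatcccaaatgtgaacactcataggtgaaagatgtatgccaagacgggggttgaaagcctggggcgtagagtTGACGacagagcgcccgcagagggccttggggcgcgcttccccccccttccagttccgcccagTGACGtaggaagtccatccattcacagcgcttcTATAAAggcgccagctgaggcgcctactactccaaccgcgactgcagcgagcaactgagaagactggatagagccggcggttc
Junb promoter, chr8:84978699-84978998, minus strand: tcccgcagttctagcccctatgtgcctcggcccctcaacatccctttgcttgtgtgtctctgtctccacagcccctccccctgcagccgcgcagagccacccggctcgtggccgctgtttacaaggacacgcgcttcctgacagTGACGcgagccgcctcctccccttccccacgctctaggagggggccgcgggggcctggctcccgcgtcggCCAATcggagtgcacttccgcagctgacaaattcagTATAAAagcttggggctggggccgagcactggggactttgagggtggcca
Atf3 promoter, chr1:191183284-191183583, minus strand: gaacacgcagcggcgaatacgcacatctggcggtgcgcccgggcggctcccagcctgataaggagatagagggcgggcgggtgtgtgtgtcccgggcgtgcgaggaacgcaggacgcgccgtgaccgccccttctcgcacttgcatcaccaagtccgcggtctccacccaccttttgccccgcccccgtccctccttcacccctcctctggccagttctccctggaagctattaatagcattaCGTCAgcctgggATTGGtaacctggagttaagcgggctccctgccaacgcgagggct
Ier3 promoter, chr17:35821463-35821762, plus strand: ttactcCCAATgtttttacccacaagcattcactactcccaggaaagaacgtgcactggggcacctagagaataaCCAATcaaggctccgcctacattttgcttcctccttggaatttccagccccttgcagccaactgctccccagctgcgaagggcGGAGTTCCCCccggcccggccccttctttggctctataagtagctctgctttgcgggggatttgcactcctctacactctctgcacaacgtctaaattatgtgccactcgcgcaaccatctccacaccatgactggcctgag
The CRE half-site TGACG, a core bound by CREB and ATF factors, was present on either strand in 6 of the 8 promoters and in 20.8% of all 32851 promoters of the same length. Fos held it at bases 122 to 126 and 185 to 189, Junb at bases 145 to 149 and Atf3, on the other strand, at bases 244 to 248, and Fosb, Klf4 and Dusp1 held it too. The full palindrome TGACGTCA, which contains the half-site, was found only in Dusp1 among the 8, and in 1.79% of all promoters. A NF-kappaB site was present in Ier3, Fos and Fosb and in 4.51% of all promoters. TATAAA, searched on the gene's own strand, was in Fos and Junb and in 8.32% of all. In Junb it began at the annotated start itself, and in Fos it lay at bases 218 to 223. CCAAT was in Ier3, Atf3, Junb and Jun and in 37.4% of all, and the EGR site GCGNGGGCG was in Klf4 and Fosb and in 5.55%. The CArG box, the letters that SRF binds, the AP-1 letters TGAGTCA and the STAT letters TTCNNNGAA were in none of the 8 windows and in 1.63%, 5.2% and 8.3% of all. Bases further than 250 upstream were not searched, nor was any promoter of Egr1 or Ier2. Absence from these windows therefore does not show that a gene lacks the site. These are matches of letters in 300 bases, not measured binding.

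Among the Fos family, Fos, which pairs with Jun proteins to form AP-1, was lower in each colitis mouse than in any normal mouse. Its level was 373, 61.9 and 152 FPKM in normal mice 1, 3 and 4 and 41.2, 49.9 and 49.6 FPKM in colitis mice 1, 2 and 4. In normal mice receiving BBR 1, 3 and 4 it was 30.8, 43.8 and 80.7 FPKM, and in colitis mice receiving BBR 2, 3 and 4 it was 43.8, 61.8 and 102 FPKM. The 2 groups did not overlap, and the 3 colitis mice were close together, at 46.9 ± 4.94 FPKM (SD, n = 3), whereas the normal mice spread over 195 ± 160. Fosb, a second Fos-type partner of Jun, stayed low, at 2.13, 0.35 and 4.13 FPKM in normal mice, 1.71, 1.72 and 1.06 in colitis mice, 0.79, 1.92 and 2.71 in normal mice receiving BBR and 0.77, 3.54 and 4.51 in colitis mice receiving BBR. All 4 groups of Fosb overlapped, and normal mouse 3 was the lowest of the 12.

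Jun, the founding member of its family, was the steadiest of the 10 genes. It was at 42.4, 38.7 and 28.9 FPKM in normal mice, 41.1, 47.3 and 37.4 in colitis mice, 32.9, 35.2 and 40.5 in normal mice receiving BBR and 65.4, 47.1 and 30.9 in colitis mice receiving BBR. Its group means ran from 36.2 to 47.8 FPKM, and the groups overlapped. Junb, a Jun protein often opposed to Jun in its effect on growth, was at 276, 124 and 92.4 FPKM in normal mice, 70.3, 76.2 and 95.8 in colitis mice, 76.8, 91.4 and 140.2 in normal mice receiving BBR and 96.0, 99.9 and 124 in colitis mice receiving BBR. Normal mouse 1 was far above the rest for Junb, and the 3 colitis mice receiving BBR all lay above the 3 colitis mice, the nearest pair being 96.0 against 95.8 FPKM.

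Of the other transcription factors, Egr1, a zinc finger protein induced by MAP kinase signalling, was at 261, 2.03 and 11.6 FPKM in normal mice, 5.17, 12.3 and 8.29 in colitis mice, 2.75, 10.1 and 6.76 in normal mice receiving BBR and 4.83, 9.58 and 9.70 in colitis mice receiving BBR. Apart from normal mouse 1, the other 11 mice shared 1 range in all groups, from 2.03 to 12.3 FPKM. Atf3, a stress-induced factor that also restrains inflammatory genes, was at 31.2, 13.2 and 21.4 FPKM in normal mice, 28.7, 39.7 and 13.8 in colitis mice, 14.2, 21.1 and 18.1 in normal mice receiving BBR and 37.7, 50.8 and 30.3 in colitis mice receiving BBR. With BBR, all 3 colitis mice were above the 3 normal mice, while without BBR the groups overlapped. Klf4 was at 302, 243 and 374 FPKM in normal mice, 186, 118 and 285 in colitis mice, 307, 281 and 410.1 in normal mice receiving BBR and 164, 117 and 507 in colitis mice receiving BBR. Colitis mice 1 and 2 and colitis mice receiving BBR 2 and 3 were the 4 lowest of the 12 for Klf4, and the mice numbered 4 of those groups were within or above the range of the normal mice.

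The last 3 members are not DNA-binding factors of the AP-1 or EGR type. Ier2, a nuclear protein induced with Fos, was at 115, 35.1 and 34.0 FPKM in normal mice, 23.5, 22.2 and 39.3 in colitis mice, 24.7, 46.7 and 29.6 in normal mice receiving BBR and 20.0, 20.0 and 39.2 in colitis mice receiving BBR. Again normal mouse 1 stood above all others, and the rest overlapped. Ier3, a stress-inducible protein known to act on apoptosis and NF-kappaB signalling, was at 14.2, 7.32 and 7.90 FPKM in normal mice, 24.0, 33.1 and 14.4 in colitis mice, 4.89, 6.01 and 7.62 in normal mice receiving BBR and 12.3, 24.0 and 10.7 in colitis mice receiving BBR. All colitis mice were above all normal mice, by the narrow margin of 14.4 against 14.2 FPKM, and all colitis mice receiving BBR were above all normal mice receiving BBR. Dusp1, the phosphatase that removes activating phosphates from MAP kinases, was at 35.4, 23.5 and 19.8 FPKM in normal mice, 20.1, 60.4 and 21.5 in colitis mice, 28.1, 18.2 and 28.4 in normal mice receiving BBR and 46.0, 53.2 and 23.2 in colitis mice receiving BBR. Colitis mouse 2 and colitis mice receiving BBR 2 and 3 formed its top 3, with every group overlapping.

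**Figure D1:**
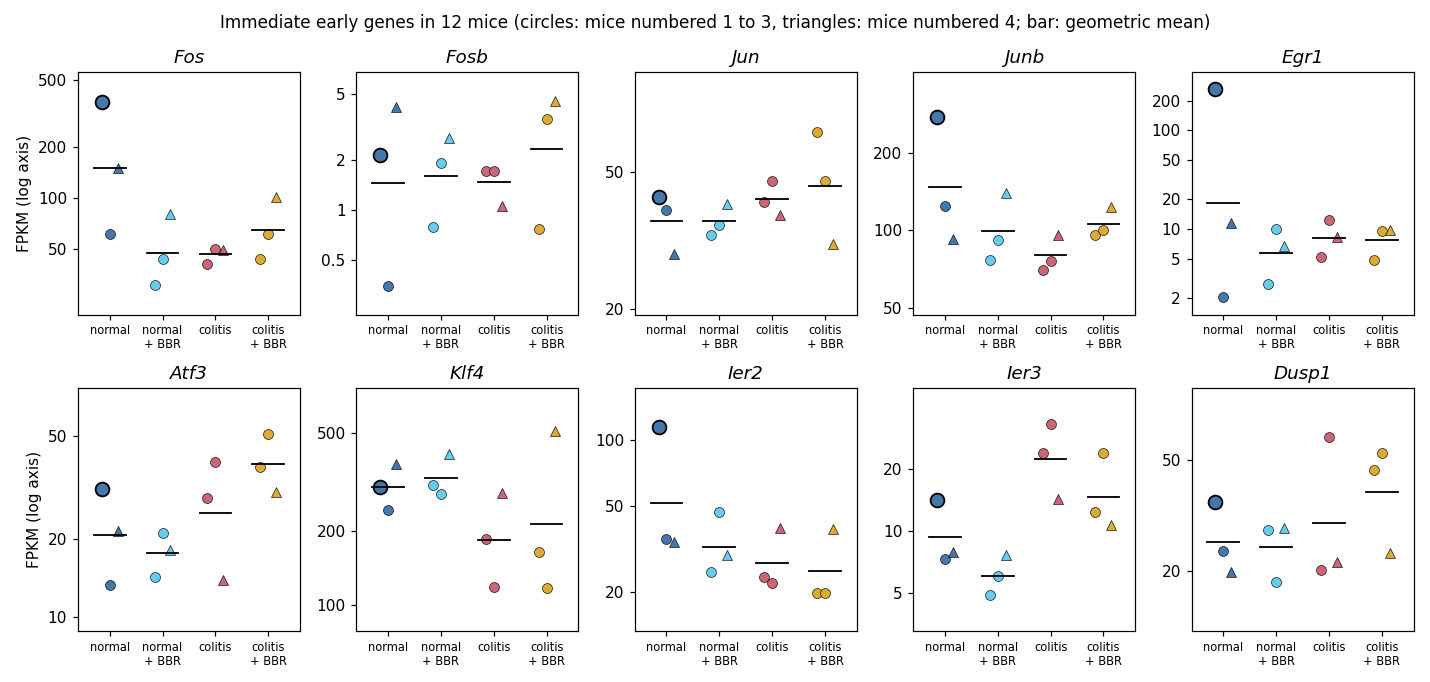
FPKM of each of the 10 genes on a log axis (vertical) in the 4 groups (horizontal), 1 point per mouse, with triangles for mice numbered 4, a thick outline for normal mouse 1 and a bar at the geometric mean of 3 mice. Normal mouse 1 is the highest of the 12 mice for Fos, Junb, Egr1 and Ier2, and Ier3 is the gene whose colitis groups lie above the corresponding normal groups without overlap.

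Which immediate early genes differed in colitis was asked first, in mice without BBR. Ier3 was 2.39-fold higher in colitis than in normal mice and Fos was lower, at 0.308 times the normal level. On the log2 scale these were differences of 1.25 (SE 0.39) and -1.70 (SE 0.56), with 3 mice a group. Junb (-0.88, SE 0.36), Ier2 (-0.91, SE 0.47), Egr1 (-1.19, SE 1.27) and Klf4 (-0.71, SE 0.49) had negative differences, while Jun (0.21, SE 0.26), Dusp1 (0.22, SE 0.44), Atf3 (0.28, SE 0.39) and Fosb (-0.05, SE 0.81) lay close to 0 for their errors.

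None of the 10 passed limma's test with Benjamini-Hochberg adjustment over all genes at 0.05, which called 1.08% of the genes tested. Only the spread between these mice enters such p-values. The smallest adjusted p-values from limma were 0.115 for Ier3 and 0.131 for Fos. At an unadjusted p of at most 0.05, limma called 3 of the 10, Fos and Junb lower and Ier3 higher, beside 21.4% of all genes, 15.9% lower and 5.56% higher. That split, 2428 genes lower and 852 higher, became 1521 and 1488 with quantile normalization and 1245 and 1442 after subtracting every mouse's own median (centring). In the same way, 2 of the 10, Fos lower and Ier3 higher, had no overlap between the groups, beside 29.3% of all genes, 22.2% lower and 7.1% higher. Counts of this size among 10 genes lie near the shares over all genes, and the exact permutation test of 3 against 3 mice cannot go below p = 0.1, the value that Fos and Ier3 reached. The median difference of the 10 was -0.38, beside -0.32 over all genes, but it was 0.25 without normal mouse 1, -0.92 without normal mouse 3 and -0.046 after centring, so its sign and size rested on single mice.

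The lower Fos in colitis was seen both within mice numbered 1 to 3, at -1.74, and between the mice numbered 4, at -1.61. Over leaving out each mouse it was largest in size without normal mouse 3, at -2.34, and smallest without normal mouse 1, at -1.05 on the log2 scale, with a limma adjusted p of 0.359. Leaving out normal mouse 1 also moved Egr1 to 0.71, Ier2 to -0.34 and Junb to -0.42. Ier3 was 1.45 within mice numbered 1 to 3, 0.85 between mice numbered 4 and 1.55 without normal mouse 1. Leaving out each mouse in turn gave 0.98 to 1.58 for Ier3, but -0.05 to 0.70 for Atf3 and -0.29 to 0.50 for Dusp1, whose signs rested on colitis mouse 2 and, for Atf3, on normal mouse 3 as well. The smooth muscle, endothelial, granulocyte and macrophage sums given above moved with colitis too, and their part in these differences was not tested.

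The same contrast in mice that all received BBR compares colitis mice receiving BBR with normal mice receiving BBR. Here the difference of Ier3 was 1.26 (SE 0.39) and the difference of Atf3 was 1.14 (SE 0.39). Fosb (0.51, SE 0.81), Dusp1 (0.65, SE 0.44), Fos (0.45, SE 0.56), Egr1 (0.41, SE 1.27), Jun (0.34, SE 0.26) and Junb (0.09, SE 0.36) had positive differences, and Klf4 (-0.62, SE 0.49) and Ier2 (-0.37, SE 0.47) negative ones, all with 95% intervals that include 0. With each mouse centred on its median, Ier2 turned to 0.08. All 7 stroma (median -1.29), 7 smooth muscle (median -1.80) and 5 endothelial markers (median -1.21) were lower here, as were 12264 of 15315 genes. All 7 goblet markers (median 0.85) and all 5 granulocyte markers tested (median 2.01) were higher, and the other marker lists were mixed. The part of these markers in the members' differences was not tested.

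No member passed the limma adjusted limit, which called 0.0392% of all genes, and Ier3 and Atf3 both had an adjusted p of 0.215 from limma. At the unadjusted limit limma called 2 of the 10, Ier3 and Atf3, both higher, beside 19.7% of all genes, with 2.37% of all genes higher. The 2647 genes lower and 363 higher there became 900 and 994 with quantile normalization and 622 and 1084 after centring. Ier3 and Atf3 were also the 2 of 10 members that did not overlap between the groups, both higher, beside 20.2% of all genes, with 2.26% of all genes higher. The median of the 10 was 0.43, beside -0.40 over all genes, and it was 0.085 without normal mouse receiving BBR 1 and 0.18 without colitis mouse receiving BBR 4. With quantile normalization it was 0.72, beside -0.03 over all genes, and after centring 0.88, beside 0.06.

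Colitis mouse receiving BBR 4 weighed heavily in this contrast. Its granulocyte sum was 2.79 FPKM and its smooth muscle sum 3458, both within the ranges of the normal mice receiving BBR or, for granulocytes, of either group on water, and its Klf4 of 507 FPKM was the highest of the 12. Without this mouse Ier3 was 1.49 with a limma adjusted p of 0.0408 and Klf4 was -1.24 with a limma adjusted p of 0.0468, in a fit that called 14.7% of all genes. The difference of Klf4 was -1.08 within mice numbered 1 to 3 and 0.31, of opposite sign, between the mice numbered 4. For Ier3 these were 1.65 and 0.48, and for Atf3 1.33 and 0.74. Leaving out normal mouse receiving BBR 1 turned Egr1 to -0.11 and Junb to -0.10.

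Averaged over both BBR states, 6 colitis mice were set against 6 normal mice. Ier3 rose 2.39-fold, by 1.26 on the log2 scale (SE 0.27, 95% interval 0.66 to 1.85 on that scale), and it was the member that passed, with a limma adjusted p of 0.0221. An exact two-sided permutation test of 6 against 6 mice gave p = 0.00649. Atf3 was 0.71 higher (SE 0.28, limma adjusted p = 0.0919), Klf4 -0.67 (SE 0.34, adjusted p = 0.166, or 0.0380 with the mice numbered 4 as a block), Ier2 -0.64 (SE 0.33, adjusted p = 0.163) and Fos -0.62 (SE 0.40, adjusted p = 0.244). That 1 of 10 members passed stands beside 14.3% of all genes. At the unadjusted limit limma called 2 of 10, Ier3 and Atf3, both higher, beside 39% of all genes, with 5.75% of all genes higher. The 5100 genes lower and 880 higher at that limit became 2132 and 1925 with quantile normalization and 1648 and 2211 after centring.

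The call of Ier3 held under other pseudocounts, filters, scalings and blocks but was lost without normal mouse 3, normal mouse 4, normal mouse receiving BBR 3 or colitis mouse 1, with limma adjusted p-values of 0.0516 to 0.0564 and differences of 1.17 to 1.25. Over leaving out each of the 12 mice its difference stayed between 1.08 and 1.42. Atf3 passed without colitis mouse 4, at 0.92 with a limma adjusted p of 0.0274, and Klf4 passed without colitis mouse receiving BBR 4, at -0.98 with a limma adjusted p of 0.0138. Both passed when the 4 mice numbered 4 were left out, with 1.03 for Atf3 and -0.98 for Klf4, in a fit that called 40.4% of all genes.

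**Figure D2:**
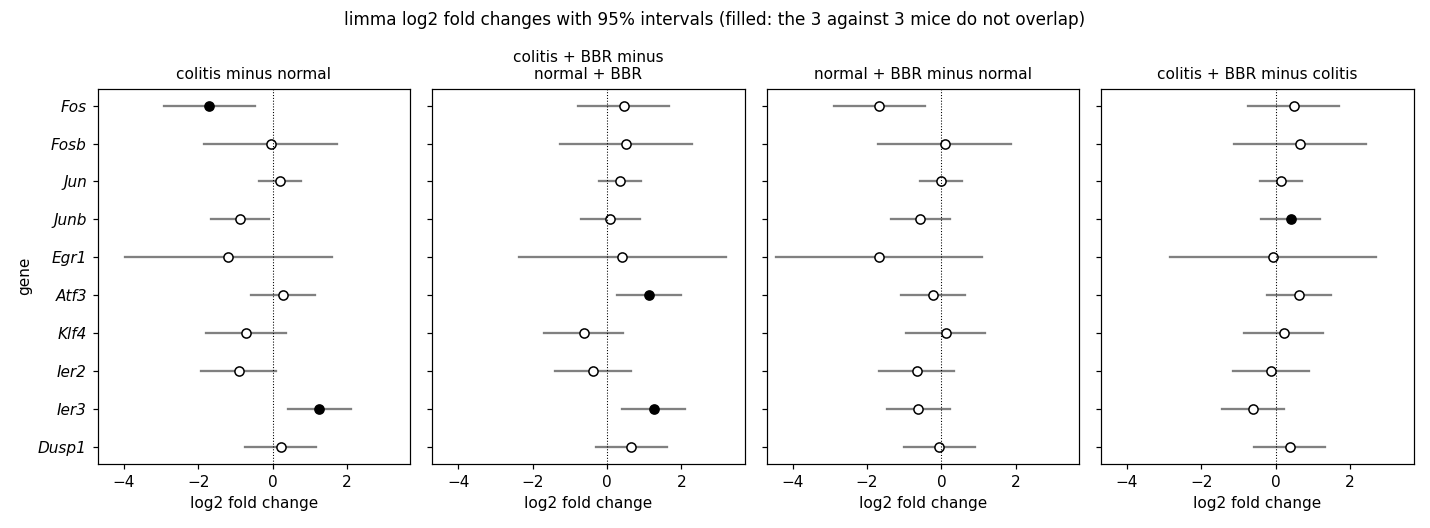
log2 fold change (horizontal) of each of the 10 genes (vertical) in 4 comparisons of 3 against 3 mice from limma, with the 95% interval as a line and filled points where the groups do not overlap. Ier3 is near 1.25 in both comparisons of colitis with its control, and Egr1 has the widest intervals, with an SE of 1.27.

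Whether BBR moved these genes was asked separately in colitis and in normal mice. In colitis mice, BBR went with a lower Ier3 (-0.61, SE 0.39, a 95% interval of -1.46 to 0.23) and higher Atf3 (0.63, SE 0.39), Fosb (0.64, SE 0.81), Fos (0.48, SE 0.56) and Junb (0.40, SE 0.36). All 7 macrophage and monocyte markers were lower in the same comparison, with a median of -1.19 and 5 of 7 past the unadjusted limit of limma. All 7 smooth muscle markers were higher (median 1.5), all 7 of fibroblasts and stroma lower (median -0.998), all 5 granulocyte markers tested lower (median -0.71), all 5 squamous markers tested lower (median -0.55) and 6 of 7 of goblet cells higher (median 0.60). Of the other lists, 3 of 5 endothelial, 5 of 7 lymphocyte and 6 of 9 colonic epithelial markers were lower. Over all genes, 9495 of 15315 were lower, with 796 lower past the unadjusted limit of limma. The squamous sums were only 0.79 to 8.59 FPKM in these groups. None of these markers passed the adjusted limit of limma, and their part in the members' differences was not tested. The limma test called none of the 10 with adjustment, beside 0% of all genes, and none at the unadjusted limit, beside 6.39%. Junb was the 1 member of 10 whose groups did not overlap, higher with BBR, beside 7.08% of all genes, with 1.42% of all genes higher. Atf3 and Ier3 thus sat on opposite sides of 0 within their intervals, and the limma adjusted p-values were 0.954 for Atf3 and 0.955 for Ier3. Without the mice numbered 4 Fosb was at -0.03, since most of its difference came from colitis mouse receiving BBR 4 against colitis mouse 4 (1.99).

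In normal mice, BBR went with lower Fos (-1.67, SE 0.56), a level 0.315 times that of normal mice, and with differences of -1.68 (SE 1.27) for Egr1, -0.67 (SE 0.47) for Ier2, -0.62 (SE 0.39) for Ier3 and -0.56 (SE 0.36) for Junb, while Klf4 was at 0.12 (SE 0.49). None of the 10 passed the limma adjusted limit, beside 0% of all genes, 1 of 10, Fos, lower, passed the unadjusted limit, beside 1.36% of all genes, with 0.842% of all genes lower, and none was free of overlap, beside 9.62%. Leaving out normal mouse 1 took Fos to -1.02, Egr1 to 0.22, Ier2 to -0.09, Junb to -0.11 and Ier3 to -0.32. Without that mouse, 4 of these 5 differences were nearer 0 and Egr1 changed sign.

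Averaged over normal and colitis mice, BBR went with a lower Ier3 (-0.62, SE 0.27), at an unadjusted limma p of 0.0447 and an adjusted p of 0.994, while the exact two-sided permutation test of 6 against 6 mice gave p = 0.225. The unadjusted call was lost with quantile normalization, centring, no trend or the replicate block, and without normal mouse 1, normal mouse receiving BBR 1 or 3, colitis mouse 1 or 2, or colitis mouse receiving BBR 2 or 4. It was the 1 of 10 members past the unadjusted limit, lower with BBR, beside 4.94% of all genes, with 4.11% of all genes lower, and none passed with adjustment, beside 0%. The difference of the BBR effect between colitis and normal mice, tested as an interaction, was positive for 10 of 10 members, Ier3 lying at only 0.0056, beside 41.1% of all genes, with a median of 0.55 beside -0.08 over all genes. Without normal mouse 1 it was positive for 7 of 10, with a median of 0.14. It was largest for Fos, at 2.15 (SE 0.79), with a limma adjusted p of 0.9998. Fos was also the 1 of 10 past the unadjusted limit of limma, higher, beside 2.42% of all genes, with 0.699% of all genes higher, and none passed with adjustment, beside 0%. The same 3 normal mice enter every member's interaction and both single contrasts against normal mice, and the interaction of Fos was smallest, over leaving out each mouse, without normal mouse 1.

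Normal mouse 1 was the highest of the 12 mice for 4 of the 10 members, Fos, Junb, Egr1 and Ier2, whereas it was highest for 12.5% of all genes. Among the 15315 genes, its margin over the highest of the other 11 mice placed Egr1 at rank 1, with 4.40 on the log2 scale or 21.2-fold, Ier2 at rank 3 with 1.30, Fos at rank 4 with 1.30 and Junb at rank 12 with 0.98. Only 10 genes, 0.0653% of those tested, stood at least 1 log2 unit above all other mice in this animal. Rank 2 was held by Egr2, a close relative of Egr1, at 1.35 FPKM against at most 0.29 elsewhere, and ranks 5 to 10 by genes outside the immediate early class, among them Cyp2c40, Ces1g and Hao2. The other members did not follow: Fosb, Jun, Atf3, Ier3, Dusp1 and Klf4 were each exceeded by some other mouse by 0.62 to 1.21 on the log2 scale. Within the normal group, though, Atf3, Ier3 and Dusp1 of this mouse were 1.80, 1.87 and 1.64 times the mean of normal mice 3 and 4.

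**Figure D3:**
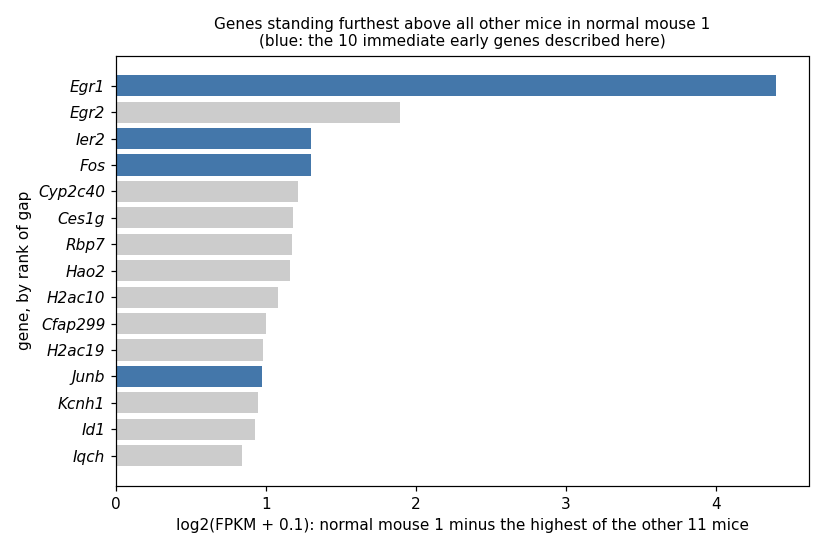
The 15 genes with the largest log2 margin (horizontal) of normal mouse 1 over the highest of the other 11 mice, ranked from the top (vertical), with the 10 immediate early genes in blue. Egr1 leads at 4.40, and Ier2, Fos and Junb are at ranks 3, 4 and 12.

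The library measures of this mouse lay within the ranges of others. Its total of 725372 FPKM and its 1518 genes at 0 lay within the ranges of the other mice numbered 1 to 3, and its smooth muscle sum of 1967 FPKM and granulocyte sum of 0.37 lay within the normal group. Its macrophage (145), stroma (263), lymphocyte (6.39) and squamous (1.82) sums were the lowest of the normal group but within the range of the other groups. Of the 8 heat shock genes, Hspa1a, Hspa1b and Dnajb1 were highest of the 12 mice in this mouse, with Hspa1a, an inducible HSP70 chaperone, at 138 FPKM against 4.48 and 10.4 in normal mice 3 and 4. Hspa1a was also 81.2 and 91.3 FPKM in normal mice receiving BBR 1 and 3, in which Fos was at 30.8 and 43.8. These are values of 1 gene in a few mice, and no relation between the heat shock genes and the members was tested.

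Across the 12 mice the members fell into loose sets. Pairs among Fos, Junb, Egr1 and Ier2 had Pearson r of 0.71 to 0.83 on the log2 scale, the highest being Fos with Junb (r = 0.83, Spearman rho = 0.73). Without normal mouse 1 these dropped, to 0.55 for Fos with Junb and -0.08 for Junb with Egr1. Jun, Atf3, Ier3 and Dusp1 formed a second set, with r of 0.52 to 0.73, led by Jun with Dusp1 (r = 0.73, rho = 0.76) and Atf3 with Ier3 (r = 0.71, rho = 0.68), and these were 0.73 and 0.71 without normal mouse 1. Klf4 ran against this second set, with r of -0.58 to -0.72. For deviations from the group means, Atf3 with Ier3 had r = 0.88 and Jun with Klf4 r = -0.69. Klf4 was highest in the mouse numbered 4 of every group. Atf3 and Ier3 were lowest in the mouse numbered 4 of each colitis group, with and without BBR. A relation within groups therefore cannot be told apart from that number. The points share libraries and tissue makeup and 4 of them the number 4, and the sets were formed after the values were seen, so they are a description with no test.

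The 10 genes were not more alike than genes at large in the raw values, with a median r of 0.20 over their 45 pairs beside 0.26 over all pairs of 11943 genes whose mean reached 1 FPKM. For deviations from group means the median was 0.35 beside 0.17, without normal mouse 1 it was 0.165 beside 0.172, and without the mice numbered 4 it was 0.44 beside 0.069. The genes most like the mean profile of the 10 over the 12 mice were Zfp36, Gla, Phlda1, Triqk and Zfp513. Their r was 0.83, 0.82, 0.79, 0.77 and 0.75, and their rho 0.80, 0.56, 0.72, 0.56 and 0.73. Without normal mouse 1 the r was 0.76, 0.62, 0.70, 0.61 and 0.77. Zfp36 encodes an RNA-binding protein that speeds mRNA decay. Zfp36 was at 152, 67.1 and 81.5 FPKM in normal mice and 80.2, 98.2 and 107 in colitis mice. Most like Fos alone were Nol4l (r = 0.87), Phf23 (r = 0.83), Nuak2 (r = 0.83), 4933427D14Rik (r = 0.83) and Phf13 (r = 0.82). Without normal mouse 1 these were 0.87, 0.65, 0.76, 0.70 and 0.83. The genes of each list were picked for the highest r, which carries no test.

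**Figure D4:**
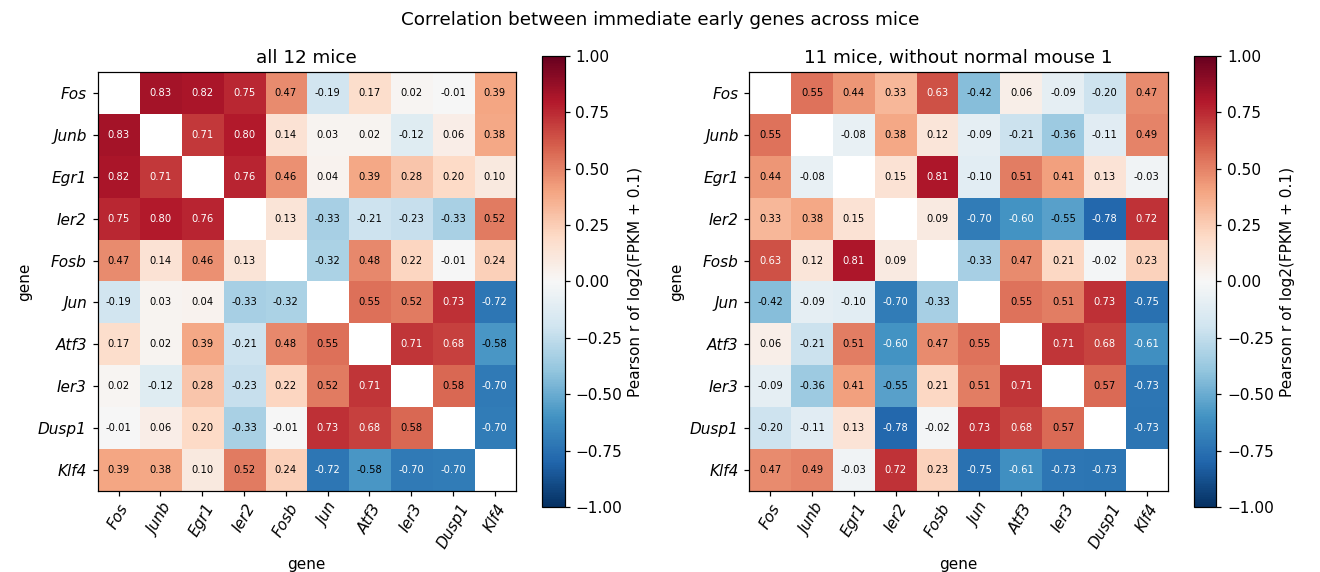
Pearson r of log2(FPKM + 0.1) between the 10 genes (both axes) over all 12 mice (left) and over 11 mice without normal mouse 1 (right), red for positive and blue for negative. The block of Fos, Junb, Egr1 and Ier2 fades on the right, where Fos with Junb is 0.55, while Jun with Dusp1 is 0.73 in both.

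The wider pathway was followed by lists around the members. In the average over both BBR states, 12020 of all 15315 genes were lower in colitis, 39% passed the unadjusted limit and 14.3% the adjusted one. Upstream, the 18 genes of SRF, its cofactors and the MAP kinases had 16 lower and 2 higher averages in colitis over both BBR states, with none past the limma adjusted limit (6 lower and 1 higher at the unadjusted limit, 7 of 18 beside 39% of all genes) and a median of -0.44, beside -0.36 over all genes. Of 13 AP-1 and related factors outside the members, 6 were higher and 7 lower, with none past the adjusted limit (1 higher and 2 lower at the unadjusted limit, beside 39% of all genes) and a median of -0.09. Fosl1, a Fos-type partner of Jun, was at 0.38, 0.20 and 0.71 FPKM in normal mice, 0.56, 1.82 and 0.29 in colitis mice, 2.10, 0.43 and 0.44 in normal mice receiving BBR and 1.58, 3.99 and 1.01 in colitis mice receiving BBR, an average difference of 0.95 (SE 0.52, limma adjusted p = 0.191). Jund, the Jun protein with the steadiest expression in most cells, was -0.74 (SE 0.45, limma adjusted p = 0.222). In these mice it was not steady, at 45.7 to 239 FPKM with a coefficient of variation of 58.5%. The mouse numbered 4 was the highest of each group for Jund.

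Of 26 other immediate early genes, 1 rose and 3 fell in colitis over both BBR states, beside 14.3% of all genes called. Nfil3, a bZIP repressor with roles in immunity and circadian timing, rose 3.99-fold (limma adjusted p = 0.0105). It was at 0.79, 1.03 and 0.76 FPKM in normal mice, 2.51, 6.68 and 4.45 in colitis mice, 1.13, 0.74 and 0.40 in normal mice receiving BBR and 2.79, 4.57 and 1.56 in colitis mice receiving BBR, so all 6 colitis mice were above all 6 normal mice. Mcl1, which protects cells from apoptosis, fell by 0.85 (SE 0.16, limma adjusted p = 0.0163), from 222 to 287 FPKM in the 6 normal mice to 119 to 217 in the 6 colitis mice, without overlap. Plk3, a stress-responsive kinase, fell by 1.09 (SE 0.24, adjusted p = 0.0218) and Ccn2, a matricellular growth factor, fell by 1.91 (SE 0.49, adjusted p = 0.0334) in the same limma fit. Ier3 and Nfil3 were the genes that rose past the adjusted limit in this contrast, among the 10 members and these 26.

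Among 8 other dual-specificity phosphatases, which switch off MAP kinases as Dusp1 does, Dusp16 fell by 0.56 (SE 0.13, limma adjusted p = 0.0255) and none rose, 1 of 8 called beside 14.3% of all genes. The median was 0.28 for the 8, beside -0.36 over all genes. Dusp16 was at 11.8 to 15.4 FPKM in the 6 normal mice and 7.97 to 11.3 in the 6 colitis mice. All 11 Kruppel-like factors outside the members and the immediate early list had lower averages in colitis, as did 12020 of all 15315 genes, with a median of -0.62. Klf9 was the 1 of 11 past the limma adjusted limit, beside 14.3% of all genes, falling by 1.12 (SE 0.30, adjusted p = 0.0385). The median over all genes in the same contrast was -0.36. Of the Kruppel-like factors on the immediate early list, Klf2 was at -0.93, Klf6 at -0.10 and Klf10 at 0.29, with limma adjusted p-values of 0.128, 0.625 and 0.442. Klf5, the epithelial relative of Klf4 expressed in crypts, was at 84.3, 133 and 163 FPKM in normal mice and 88.8, 33.0 and 176 in colitis mice, with colitis mouse 2 the lowest of its group for both Klf4 and Klf5. The 8 heat shock genes had 8 lower averages in colitis, a median of -1.14 and none past the limma adjusted limit, with 6 of 8 at the unadjusted limit, beside 12020 of 15315 genes lower and 39% at the unadjusted limit.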

How the data were processed

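Rectal RNA of 12 mice was sequenced, and the study's methods name fresh tissue, ribosomal RNA depletion and single-end reads, whereas the labels give frozen colon and a TruSeq kit. The authors filtered reads with SOAPnuke 1.5.2 by the methods, and the submitters' processing notes name Bowtie2 2.2.5, RSEM 1.2.12 and mm9. The deposited values, 1 per gene and mouse, were read as FPKM, because neither the sources used here nor the table names the unit and their sums differ between mice. TPM from which some genes were left out cannot be told apart from this, and either unit is scaled for length. Groups came from the sample labels.

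Values were taken as log2(FPKM + 0.1), and genes averaging under 0.1 FPKM were left out (15315 of 17734 remained, and 24 were at 0 throughout). A fold change on this scale understates changes of low genes. One mean per group was fitted to all 12 mice in limma 3.58.1 (R 4.3.3) with a trend, and p-values of 7 comparisons were Benjamini-Hochberg adjusted over all genes. Single values were also tested by exact two-sided permutation over mice, which cannot go below 0.1 for 3 against 3 and 0.0021645 for 6 against 6. The fit was tested on simulated data.

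Read depth was estimated only roughly, from the spacing of low values, and 3 reads then corresponded to at most 0.222 FPKM for any member (Ier3). All values of the 10 genes were above their own such floor, which covers counting error only. The members and lists were chosen with earlier results of these data known. Genes that could be named were the 10 members, every gene of 6 lists (related bZIP factors, other immediate early genes, dual-specificity phosphatases, SRF and MAP kinases, Kruppel-like factors and heat shock genes), and the 5 genes of mean 1 FPKM or more with the highest Pearson r to the members' mean scaled profile, likewise for Fos. From the lists, those past the adjusted limit were named, and Fosl1, Jund, Klf5, Egr2, Hspa1a, Hspa1b, Dnajb1, Rhob, Gadd45b, Klf2, Klf6 and Klf10 were picked after their values were seen, as were Cyp2c40, Ces1g and Hao2. Alternatives were other pseudocounts (1, 0.01), filters, scalings, blocks and leaving out mice.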

Additional observations from a re-analysis of the deposited data

Results flagged for a closer look

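Of the 26 related immediate early genes that are not members, 2 had every BBR mouse below its controls in normal mice and above them in colitis mice, a pattern held by 14 of all 15315 genes (0.0914%), while 34 (0.222%) held the mirror pattern and 48 (0.313%) either. Groups without overlap made up 9.62% of all genes in normal and 7.08% in colitis mice. Gadd45b, a stress sensor upstream of p38 and JNK, was at 24.4, 23.1 and 14.3 FPKM in normal mice 1, 3 and 4, at 8.82, 13.6 and 14.1 in the corresponding BBR group, at 17.7, 13.5 and 14.1 in colitis mice 1, 2 and 4 and at 27.3, 21.8 and 19.3 in those given BBR. Its BBR difference was -0.75 in normal and 0.59 in colitis mice on the log2 scale. The interaction of Gadd45b was 1.33 (SE 0.37), with a limma adjusted p of 0.9998, so it failed adjustment. Rhob, a small GTPase, was at 155, 152 and 185 FPKM in normal mice, at 133, 125 and 152 in normal mice with BBR, at 133, 129 and 134 in colitis mice and at 139, 164 and 221 in colitis mice with BBR. Its separation in normal mice rested on 152.28 against 152.48 FPKM, and that of Gadd45b on 14.12 against 14.34 FPKM. Rhob had differences of -0.27 and 0.38 and an interaction of 0.65 (SE 0.29), also with a limma adjusted p of 0.9998. Single mice far from the rest of their group were not tested for in groups of 3.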

How the results depend on the processing

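Of 1580 member values under alternatives, 1491 kept direction and side of the limit, 76 reversed (55 by leaving out a mouse), 4 lost and 9 gained a call, and the cause was not tested. In colitis against normal mice, Fosb (-0.05) became 0.30 with quantile normalization, 0.29 with centring, 0.080 with the replicate block and 0.86 without the 4 mice numbered 4, and Dusp1 became -0.059 with the replicate block. Leaving out mice gave -0.97 to 0.64 for Fosb, -2.76 to 0.71 for Egr1, -0.053 to 0.70 for Atf3 and -0.29 to 0.50 for Dusp1. Without the mice numbered 4, Fosb in colitis with against without BBR was -0.028. In normal mice with against without BBR, leaving out mice gave -3.24 to 0.22 for Egr1 and -0.037 to 0.28 for Klf4. In colitis against normal mice, both with BBR, Ier2 was 0.08 after centring, and leaving out mice gave -0.10 to 0.34 for Junb and -0.11 to 0.81 for Egr1.

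Members called in that comparison went from 0 to 2 without the mice numbered 4 (Ier3 and Klf4) and ranged from 0 to 2 over leaving out mice, with 2 without colitis mouse receiving BBR 4. For the mean effect of colitis they went from 1 to 2 with the mice numbered 4 as a block (Ier3 and Klf4) and to 3 without them (Atf3, Ier3 and Klf4), and ranged from 0 to 2 over leaving out mice. The median r of deviations, 0.35, was 0.165 without normal mouse 1, an alternative chosen after seeing the data, and 0.44 without the mice numbered 4.

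Genes called in colitis against normal mice, 165, were 91 with a pseudocount of 0.01, 71 with a filter at 1, 258 with quantile normalization, 1412 with the mice numbered 4 as a block, 804 without them, 488 with these groups alone and 11 to 818 over leaving out mice. For the mean effect, 2188 became 1278 with quantile normalization, 1025 with centring, 5344 and 6187 with the block and without these mice, and 319 to 5943 over leaving out mice. With BBR in both groups, 6 became 3 with centring, 12 without a trend, 268 and 2302 with the block and without these mice, 0 with these groups alone and 0 to 2255 over leaving out mice. The replicate numbers were not taken as pairs: same-numbered mice among those numbered 1 to 3 had a mean r of 0.21 (lowest 0.078), beside 0.19 for different numbers among them. The 6 pairs of mice numbered 4 did deviate together, with a mean r of 0.50 (lowest 0.36), and 5 of 12 mice, 4 of them numbered 4, correlated best with their own number. The replicate block left members called at 0 in colitis against normal mice and at 1 in the mean effect, with 734 and 2473 genes called. With 3 mice a group, a p that misses the limit does not show that levels were alike.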
